A study of Mus musculus with 8 samples.

Results

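Tbr1, Fezf2, Bcl11b, Sox5, Bhlhe22, Zbtb18, Neurod2 and Neurod6 encode 8 DNA-binding regulators made by the glutamatergic projection neurons that leave the dorsal forebrain wall first. They were taken by symbol from the deposited gene table and are 8 of the 43629 gene IDs counted. All 8 passed the low-count filter that left 15382 genes for testing. RNA of the dorsal forebrain was sequenced in 8 samples of 2 genotypes, all from male mouse embryos at E12.5 whose strain is labelled as a mixed background with C57BL/6J. The genotype Emx1-cre/+;Sufu-fl/fl, called Sufu-cKO, is that of the 4 samples Mut_295, Mut_317, Mut_337 and Mut_340. The 4 samples named Cont_294, Cont_345, Cont_365 and Cont_370 were Sufu-fl/fl or Sufu-fl/+, and the labels neither tell which of these a given control was nor whether any carried cre. Emx1 drives cre in progenitors of the dorsal telencephalon and in their descendants, so other cells in the dissected tissue keep Sufu. Sufu is an inhibitor of the GLI transcription factors, which carry the Hedgehog signal into the nucleus.

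In the embryonic cortex, radial glia divide at the ventricle and give rise to neurons directly or through intermediate progenitors, and the earliest neurons settle as the preplate and then as the deep layers. NEUROD2, NEUROD6, BHLHE22 and ZBTB18 are shared by nearly all young cortical projection neurons, whereas TBR1, FEZF2, BCL11B and SOX5 also sort these neurons by the place their axons reach. TBR1 is known as a factor of deep layer neurons that project to the thalamus, and FEZF2 acts ahead of BCL11B in neurons that project to the brainstem and spinal cord. TBR1 is known to repress Fezf2 and Bcl11b in that choice.

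Total counts ranged from 27514357 to 34878838 per sample, and the members had between 1416 and 15031 counts in any sample. Whether the samples of 1 genotype are separate embryos, or of separate litters, is not in the labels. The p-values therefore refer to the spread among these 8 samples alone, and that spread may be technical. Levels are in CPM, with library sizes adjusted by TMM factors, and are given as mean ± SD over n = 4 samples of a genotype. A log2 fold change sets Sufu-cKO over control, and a gene was called at a Benjamini-Hochberg adjusted p under 0.05 in edgeR's quasi-likelihood test over all 15382 genes. Sufu was lower in every Sufu-cKO sample, at 40.6 ± 4.64 CPM against 112 ± 9.13 CPM in control, and the GLI target Gli1 stood at 49.5 ± 3.93 against 2.65 ± 0.993 CPM.

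Of the 8 members, Tbr1 rose and Fezf2 fell in Sufu-cKO, and the other 6 did not pass the test. That is 2 of 8 called, where 11.0% of all tested genes were called (5.34% higher, 5.64% lower). Tbr1 and Fezf2 are also the 2 members with no overlap between the genotypes, which 16.2% of tested genes showed (8.33% with Sufu-cKO higher and 7.86% with Sufu-cKO lower). Fitted log2 fold changes lay below 0 for 7 of 8 members, with a median of -0.27, where 48.2% of all tested genes lay below 0 and their median was 0.01. The samples are bulk tissue, so fewer cells of a type and less RNA per cell cannot be told apart in any value here. The plot of member levels by sample shows all 8 values of each member.

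**Figure D1:**
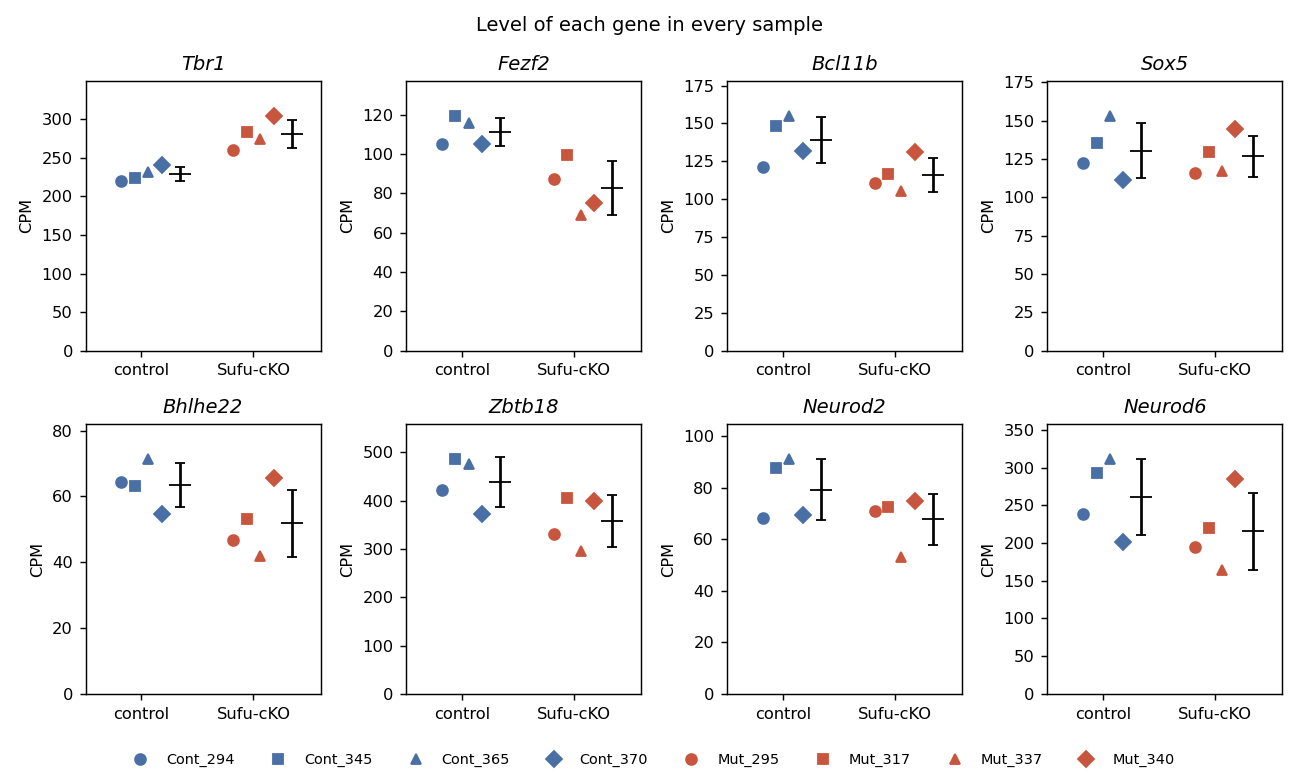
Level of each member in CPM (vertical axes, linear and starting at 0) for the 4 control and 4 Sufu-cKO samples, with a point per sample and, to its right, a black bar for the group mean with an error bar of 1 SD. Tbr1 is the member whose Sufu-cKO points (259.8 to 303.9 CPM) all lie above control (219.3 to 240.5 CPM), and Fezf2 the member whose Sufu-cKO points (69.1 to 99.3 CPM) all lie below control (104.8 to 119.1 CPM).

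Tbr1 (ENSMUSG00000035033, GRCm38 chr2:61802930-61814114, plus strand) encodes the T-box factor of preplate and early deep layer neurons, and is also transcribed in Cajal-Retzius cells. Control samples had 219, 224, 231 and 240.5 CPM, and Sufu-cKO samples had 259.8, 284, 275 and 304 CPM, in the order in which the samples are listed above. The lowest Sufu-cKO sample, Mut_295, lay above the highest control sample, Cont_370. Tbr1 rose from 229 ± 9.23 to 281 ± 18.5 CPM, a log2 fold change of 0.29 (SE 0.0584, 95% interval 0.17 to 0.42, edgeR adjusted p = 0.00656), or 1.23-fold. It had the smallest spread of the 8 members within a genotype, with a coefficient of variation of 4.03% in control and 6.58% in Sufu-cKO. The call was kept without each of the 8 samples in turn (adjusted p from 0.00263 to 0.0292). The authors' deposited table gives a fold change of 1.23 for Tbr1 at a false discovery rate of 0.0395.

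Fezf2 (ENSMUSG00000021743, chr14:12341892-12345865, minus strand) encodes a zinc finger repressor made in cortical progenitors and kept in neurons that project below the cortex. Control samples had 105, 119, 115 and 105 CPM, and Sufu-cKO samples had 87.4, 99.3, 69.1 and 74.8 CPM. Mut_337 and Mut_340 were lowest, and Mut_317 came nearest to control without reaching it. Fezf2 fell from 111 ± 7.28 to 82.7 ± 13.5 CPM, a log2 fold change of -0.43 (SE 0.103, 95% interval -0.65 to -0.20, edgeR adjusted p = 0.0209), which is 1.34-fold lower. The call was lost without Cont_345 (adjusted p = 0.0689), Cont_365 (0.0667) or Mut_340 (0.0625), with log2 fold changes from -0.53 to -0.36 over the 8 fits that each left out 1 sample. The authors' deposited table gives a fold change of 0.743 for Fezf2 at a false discovery rate of 0.00505. Of the 8 members, Fezf2 had the fitted log2 fold change farthest from 0.

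Both calls ended when the sample mean of a marker list was added to the fit as a covariate, an alternative chosen after the data were seen. With the GABAergic and ventral telencephalic list, the log2 fold change of Tbr1 was 0.27 (edgeR adjusted p = 0.0785) and that of Fezf2 was -0.33 (adjusted p = 0.179). Both genes kept an unadjusted p under 0.05 in that fit, which called 678 genes against 1689 without a covariate. The mean of the GABAergic list was 0.34 to 2.82 log2 CPM in control and 1.68 to 3.35 in Sufu-cKO. The part of ventral cells in the 2 members was not tested. With the list of young neurons of any type, it was 0.18 for Tbr1 (adjusted p = 0.632) and -0.46 for Fezf2 (adjusted p = 0.473). That list's mean did not overlap between genotypes, at 6.23 to 6.52 log2 CPM in control against 6.64 to 6.69 in Sufu-cKO, so list and genotype cannot be told apart there, and the call count over all genes dropped from 1689 to 132.

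Bcl11b (ENSMUSG00000048251, chr12:107910403-108003602, minus strand) encodes CTIP2, the zinc finger factor of subcerebral projection neurons, and is also made by striatal neurons. Control samples had 121, 148, 155 and 132 CPM, and Sufu-cKO samples had 110.5, 116, 105 and 131 CPM. The 3 lowest samples were Sufu-cKO samples, while Mut_340 lay between Cont_294 and Cont_370. The means were 139 ± 15.4 and 116 ± 11.2 CPM, with a log2 fold change of -0.26 (SE 0.0876, 95% interval -0.45 to -0.07) that did not pass (edgeR adjusted p = 0.0835). It passed with DESeq2 (adjusted p = 0.0499, a tool that called 12.6% of the genes it tested), without Cont_294 (edgeR adjusted p = 0.0392) and without Mut_340 (0.0319).

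Sox5 (ENSMUSG00000041540, chr6:143828425-144781977, minus strand) encodes an SRY-related factor that times the sequence of corticofugal neuron types. Control samples had 122, 135, 153 and 111 CPM, and Sufu-cKO samples had 116, 129.5, 117 and 144 CPM. Every Sufu-cKO sample lay inside the control range. The log2 fold change was -0.04, with a 95% interval of -0.26 to 0.18 that leaves room for a change of either sign. Antisense and intronic gene models that overlap Sox5 had at most 2 counts in any sample.

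Bhlhe22 (ENSMUSG00000025128, chr3:18054174-18057517, plus strand, 1 exon) encodes a basic helix-loop-helix repressor of young projection neurons that works with PRDM8. Control samples had 64.5, 63.2, 71.2 and 54.8 CPM, and Sufu-cKO samples had 46.9, 53.1, 42.0 and 65.5 CPM. Mut_295, Mut_317 and Mut_337 lay below every control sample and Mut_340 lay above 3 of the 4. The log2 fold change was -0.29 (SE 0.130, 95% interval -0.58 to 0.00) and did not pass (edgeR adjusted p = 0.222), but passed without Mut_340 (-0.43, adjusted p = 0.0242).

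Zbtb18 (ENSMUSG00000063659, chr1:177442351-177450764, plus strand) encodes RP58, a zinc finger repressor that switches off progenitor genes as cortical neurons mature. Control samples had 422, 485, 475 and 373 CPM, and Sufu-cKO samples had 331, 406, 296 and 399.95 CPM. Mut_295 and Mut_337 lay below all 4 control samples, and Mut_317 and Mut_340 lay above Cont_370 alone. The means were 439 ± 51.9 and 358 ± 53.5 CPM, with a log2 fold change of -0.29 (SE 0.115, 95% interval -0.55 to -0.04) that did not pass (edgeR adjusted p = 0.155) and that passed with 1 surrogate variable in the fit (adjusted p = 0.0413). The antisense gene model Gm26801 shares 54 exon bases with Zbtb18 and had 36 to 81 counts per sample, under 1% of those of Zbtb18. Its level was 2.34 ± 0.144 CPM in control against 1.55 ± 0.293 CPM in Sufu-cKO (log2 fold change -0.60, edgeR adjusted p = 0.0641). The strand setting of the counting is not given in the sources used here, so reads over those 54 bases could belong to either gene.

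Neurod2 (ENSMUSG00000038255, chr11:98325415-98329648, minus strand) and Neurod6 (ENSMUSG00000037984, chr6:55677818-55681263, minus strand) encode basic helix-loop-helix activators that young pyramidal neurons share. Neurod2 was measured at 68.4, 87.6, 90.9 and 69.4 CPM in control and at 70.8, 72.4, 53.2 and 74.7 CPM in Sufu-cKO. Neurod6 was measured at 238, 293, 311 and 202 CPM in control and at 195, 219, 164 and 284 CPM in Sufu-cKO. For both genes Mut_337 was the lowest of all 8 samples. For Neurod6, Mut_295 also lay below every control sample, and the remaining samples of the genotypes intermixed for both genes. Neither passed, with log2 fold changes of -0.22 for Neurod2 (95% interval -0.51 to 0.06, edgeR adjusted p = 0.351) and -0.28 for Neurod6 (95% interval -0.73 to 0.18, adjusted p = 0.486). Neurod6 had the widest spread within a genotype of the members, with its highest sample 1.54 times its lowest in control and 1.74 times in Sufu-cKO. For the 6 members that did not pass here, the authors' deposited table gives fold changes from 0.816 to 0.971 and false discovery rates from 0.177 to 1, at a rate under 0.05 for 5.78% of its genes.

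**Figure D2:**
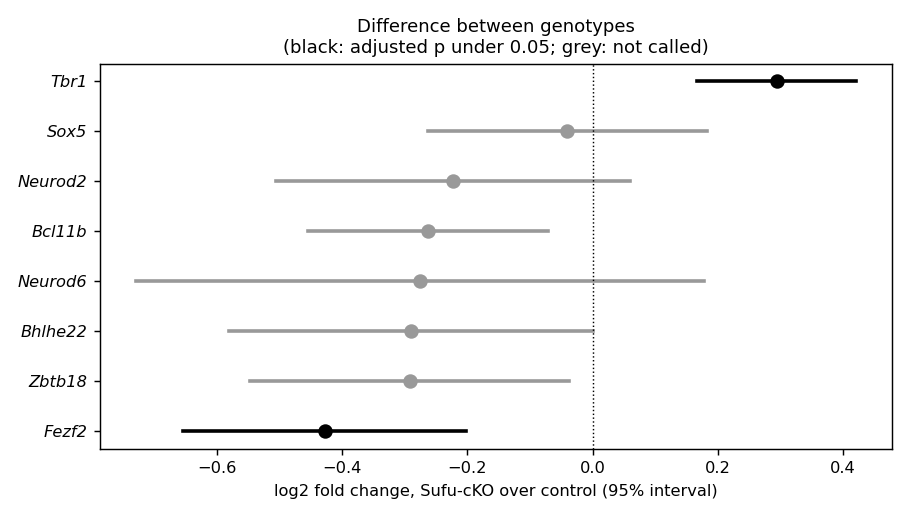
Log2 fold change of each member, Sufu-cKO over control (horizontal axis, 0 marks no difference), as a point with its 95% interval from edgeR, black for called and grey for not called. The interval of Tbr1 (0.17 to 0.42) lies above 0, those of Fezf2, Bcl11b and Zbtb18 lie below 0 before adjustment, and those of the remaining 4 reach 0.

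Within a genotype, most members were high or low in the same samples. In control, Cont_365 lay above the control mean for 8 of 8 members and Cont_345 for 7, while Cont_294 and Cont_370 did so for 1 each. In Sufu-cKO, Mut_317 lay above the group mean for 8 of 8 members and Mut_340 for 7, Mut_295 for 2 and Mut_337 for 0. Mut_340 was the highest of its group for 6 members and Mut_337 the lowest for 6. Fezf2 ran against this in Mut_340, where it was 0.13 below the group mean in log2 while Neurod6 was 0.43 above it. Tbr1 ran against it in Cont_370, where it was 0.07 above the group mean while the deviation of Neurod6 was -0.35.

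Over all 8 samples, members were compared by the root-mean-square difference of their log2 CPM profiles, each centred on its own mean, so that a smaller value means more alike. The closest pairs were Bhlhe22 with Zbtb18 (0.104), Zbtb18 with Neurod2 (0.105), Bcl11b with Neurod2 (0.107) and Bhlhe22 with Neurod6 (0.112). Tbr1 and Fezf2 were the farthest apart of the 28 pairs (0.407), and the 6 largest distances all involved Tbr1. All samples share 1 tissue and differ in library depth, so the distances describe these 8 libraries. They also cover both genotypes, so the rise of Tbr1 and the fall of Fezf2 enter them. The distances of Tbr1 thus restate those changes and add no evidence to them.

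**Figure D3:**
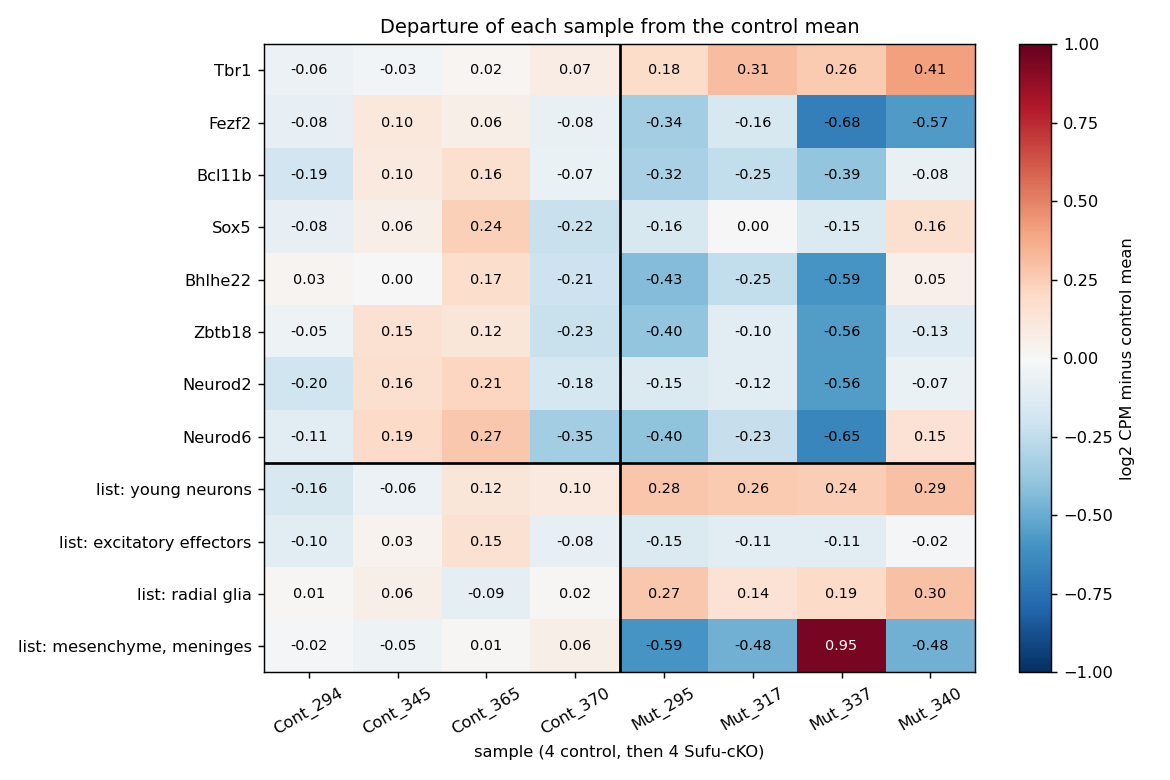
Log2 CPM of each member in each sample minus that member's control mean (colour and printed value, log2 units), with samples in columns by genotype and the means of 4 gene lists in the lowest rows. Mut_337 reads from -0.68 to -0.15 for 7 members and 0.26 for Tbr1, and 0.95 for the mesenchyme list.

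The same distance was taken from each member to 9668 other genes whose mean level reached 10 CPM. Nadk2, which encodes the mitochondrial NAD kinase (0.0409), and Tpgs2, a subunit of the tubulin polyglutamylase complex (0.0445), were nearest to Tbr1. The distance covers both genotypes, so a gene near a member has a similar difference between genotypes by the way it was chosen, and the values that follow are descriptions. Both rose, by 0.29 and 0.31 on the log2 scale, although the call for Tpgs2 was lost without Cont_345 (edgeR adjusted p = 0.0554) or Cont_365 (0.0506). Nearest to Fezf2 were Bok, a BCL2-family gene (0.0636), and Lhx2, the LIM homeobox gene of cortical progenitors (0.0680), and Lhx2 fell by 0.51 (edgeR adjusted p = 0.00169). Epha5, an ephrin receptor gene, was the nearest gene to Bhlhe22 (0.0627), Zbtb18 (0.0602) and Neurod6 (0.0931). The cannabinoid receptor gene Cnr1 was second for Bhlhe22 (0.0725) and Neurod6 (0.107), and the cyclin gene Ccnd2 second for Zbtb18 (0.0762). Prmt8, an arginine methyltransferase gene, was nearest to Bcl11b (0.0680) and second for Neurod2 (0.0888), after Sult4a1, a brain sulfotransferase gene (0.0805). Klf13 was second for Bcl11b (0.0684). For Sox5 these were Fabp5, a fatty acid binding protein gene (0.0501), and Dpysl3, a growth cone gene (0.0577). None of Bok, Epha5, Cnr1, Ccnd2, Prmt8, Sult4a1, Klf13, Fabp5 and Dpysl3 was called, with edgeR adjusted p from 0.0709 to 0.783.

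Zbtb18, Neurod2 and Neurod6 are among the members that were high or low in the same samples. Zbtb18 is a known target of proneural basic helix-loop-helix factors, Neurod2 and Neurod6 encode factors of that class, and the class binds E-boxes (CANNTG, whose fixed letters read the same on both strands). Their promoters are therefore shown, as the 250 bases before the annotated start from RefSeq on GRCm38.p6, each 5′ to 3′ on the gene's own strand with E-boxes in capitals. The windows are chr1:177442101-177442350 (plus strand) for Zbtb18, chr11:98329646-98329895 (minus strand) for Neurod2 and chr6:55681264-55681513 (minus strand) for Neurod6. Of the 5 RefSeq starts of Zbtb18, the one whose window holds no annotated exon of the gene is shown, and 3 bases of the Neurod2 window lie in its first exon.
Zbtb18: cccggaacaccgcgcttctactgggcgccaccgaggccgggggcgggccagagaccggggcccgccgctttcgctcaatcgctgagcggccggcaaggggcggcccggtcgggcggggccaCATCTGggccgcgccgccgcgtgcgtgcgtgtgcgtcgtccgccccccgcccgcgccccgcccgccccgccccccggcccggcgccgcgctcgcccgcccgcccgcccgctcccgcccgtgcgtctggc
Neurod2: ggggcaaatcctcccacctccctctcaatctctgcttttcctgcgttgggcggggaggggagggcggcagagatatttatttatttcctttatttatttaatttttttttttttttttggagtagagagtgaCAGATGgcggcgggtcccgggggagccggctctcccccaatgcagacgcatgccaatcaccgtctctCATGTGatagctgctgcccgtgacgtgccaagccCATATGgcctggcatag
Neurod6: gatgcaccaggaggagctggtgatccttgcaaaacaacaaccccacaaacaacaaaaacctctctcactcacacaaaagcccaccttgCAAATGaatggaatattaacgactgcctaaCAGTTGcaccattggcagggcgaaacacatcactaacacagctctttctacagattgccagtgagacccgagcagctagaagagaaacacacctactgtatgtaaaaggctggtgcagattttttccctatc
The Zbtb18 window held 1 E-box, 129 bases before the start, in a stretch of 84% G and C. The Neurod2 window held 3, at 118, 51 and 17 bases before the start, and the Neurod6 window held 2, at 162 and 132 bases. The other 4 Zbtb18 windows held 1 to 5 and the Tbr1 window 1, while those of Fezf2, Bcl11b and Sox5 held 0. These windows are not all placed alike. Exons of the gene itself covered 250 bases of the Tbr1 window, 188 of the Bcl11b window and 94 of the Fezf2 window. The Sox5 window, chr6:143947107-143947356, lies inside the span of the gene. E-box counts of these members therefore cannot be set against their profiles. Of 32851 RefSeq promoters of the same length, 66.2% held an E-box. The CAGATG form that NEUROD proteins favour (read on both strands, and counted among the E-boxes) stood once in the Zbtb18 and once in the Neurod2 window and in 14.4% of all promoters. The letters of a T-box element (AGGTGTGA, both strands, in 1.12% of promoters) and of a GLI site (GACCACCCA, both strands, in 0.225%) were in none of the 11 promoter windows of the 7 members matched by symbol. A match is a description of letters and not of binding.

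Per length of exon, the members kept 1 order in both genotypes. Levels in CPM per kilobase of merged GENCODE M21 exons were highest for Neurod6, at 121 ± 23.4 in control and 100.2 ± 23.8 in Sufu-cKO. Zbtb18 followed at 71.5 ± 8.45 and 58.4 ± 8.71, then Tbr1 at 41.7 ± 1.68 and 51.1 ± 3.37, and Fezf2 at 36.5 ± 2.39 and 27.1 ± 4.43. Neurod2 came next at 25.2 ± 3.77 and 21.6 ± 3.13, then Bhlhe22 at 19.0 ± 2.02 and 15.5 ± 3.03. Bcl11b stood at 17.1 ± 1.89 and 14.3 ± 1.38, and Sox5 was lowest at 9.07 ± 1.25 and 8.82 ± 0.927. In control the ranges of neighbours in this order overlapped for Bhlhe22 and Bcl11b alone. In Sufu-cKO the neighbours Zbtb18 and Tbr1, Fezf2 and Neurod2, Neurod2 and Bhlhe22, and Bhlhe22 and Bcl11b overlapped. Tbr1 and Fezf2, neighbours in this order, had ranges of 40.0 to 43.8 and 34.4 to 39.1 in control and of 47.4 to 55.4 and 22.7 to 32.6 in Sufu-cKO, without overlap in either. The counted Fezf2 gene lies at chr14:12341892-12345865, whereas the GENCODE M21 model that gave its length spans chr14:12342094-12348189, so its level per kilobase and its place in the order may differ under the model that was counted. The merged length includes exons of all isoforms, which lowers the value of genes with many exons such as Sox5.

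Ratios between members within a sample take out the depth of that sample. The Tbr1 to Fezf2 ratio of CPM was 2.09, 1.88, 2.003 and 2.29 in control and 2.97, 2.86, 3.97 and 4.06 in Sufu-cKO. The mean log2 ratio was 0.73 higher in Sufu-cKO, or 1.66-fold. That every Sufu-cKO ratio exceeded every control ratio follows from the separate ranges of Tbr1 and of Fezf2, so this ratio and its p restate those values and add no evidence to them. The Tbr1 to Bcl11b ratio ran from 1.49 to 1.82 in control and from 2.32 to 2.61 in Sufu-cKO, without overlap and 1.47-fold higher (0.55 in log2). The Tbr1 and Bcl11b values given above enter this ratio, so it adds no separate evidence to the rise of Tbr1. In the 2-sided exact permutation test over all 70 splits of 4 and 4, each of these ratios gave p = 0.0286, the smallest the design allows, and 0.0571 after adjustment over the 4 ratios tested, so neither passed. The ratios were chosen with earlier results for Tbr1 and Fezf2 known. Bcl11b to Fezf2 ranged from 1.16 to 1.34 and from 1.17 to 1.75 (difference 0.18 in log2, exact p = 0.257, adjusted p = 0.343), with Mut_337 and Mut_340 highest. Neurod6 to Neurod2 ranged from 2.90 to 3.48 and from 2.75 to 3.81 (difference -0.06, exact p = 0.629, adjusted p = 0.629).

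**Figure D4:**
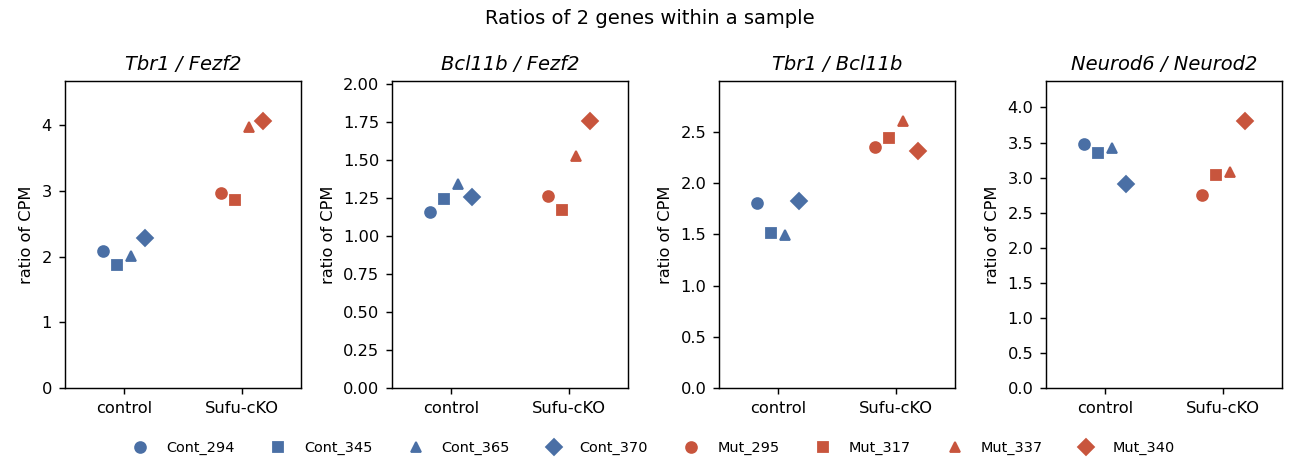
Ratios of CPM between members within each sample (vertical axes) for the 4 control and 4 Sufu-cKO samples, with a point per sample. The Tbr1 to Fezf2 and Tbr1 to Bcl11b ratios of the Sufu-cKO samples lie above those of all control samples, and the ranges of the Bcl11b to Fezf2 and Neurod6 to Neurod2 ratios overlap.

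Among the 8 tested paralogues of the members, Neurod4 rose and Bcl11a fell. Neurod4 encodes a basic helix-loop-helix activator of differentiating progenitors and rose from 10.5 ± 1.73 to 19.4 ± 2.90 CPM (log2 fold change 0.89, edgeR adjusted p = 0.0013). Per kilobase it made up 1.88 ± 0.523% of the summed level of the 4 Neurod genes in control and 3.85 ± 0.426% in Sufu-cKO, with no overlap (1.27 to 2.42% against 3.35 to 4.38%). Neurod6 took 70.5 ± 2.30% and 65.6 ± 3.18% of that sum, Neurod2 14.7 ± 0.833% and 14.3 ± 1.46%, and Neurod1 12.9 ± 1.35% and 16.2 ± 2.38%. Bcl11a, the paralogue of Bcl11b that marks callosal neurons later on, fell by 0.35 on the log2 scale (edgeR adjusted p = 0.00744). The share of Bcl11b in the sum of both was 42.4 ± 1.58% in control and 43.9 ± 0.551% in Sufu-cKO. Fezf1, the partner of Fezf2 in forebrain patterning, made up 4.01, 0.309, 0.516 and 2.93% of the Fezf1 and Fezf2 sum in control and 8.14, 7.77, 17.8 and 3.43% in Sufu-cKO. Mut_340 lay within the control range for that share, and Fezf1 was not called. Tbr1 against Eomes, its T-box paralogue in intermediate progenitors, took 37.9 ± 3.30% and 40.5 ± 1.12%.

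Genes of dorsal progenitors, known to act before these factors, were followed beside them. Of 12 tested, 3 rose and 6 fell (median -0.34). Pax6 (0.54) and Neurog1 (0.79), which drive cortical neurogenesis, and Sox2 (0.58), a progenitor factor, rose. Emx2, a patterning gene of the cortex, fell by 0.72 on the log2 scale, and Neurog2, the proneural gene that acts ahead of Neurod2, Neurod6 and Tbr1, fell by 0.48 (edgeR adjusted p = 0.0033).

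Of 32 other transcription regulators of cortical neurons, 8 rose, 8 fell and 16 did not pass, with a median of 0.07. Hivep2 (2.42), Id2 (0.97), Neurod4 (0.89) and Myt1 (0.38) rose. Id2, an inhibitor of basic helix-loop-helix dimers, went from 51.1 ± 3.54 to 99.9 ± 6.64 CPM. Myt1, a zinc finger factor that restrains progenitor genes in new neurons, went from 124 ± 3.90 to 161 ± 6.69 CPM. Partners of the members were picked out after their values were seen. Prdm8, the partner of Bhlhe22, rose by 0.37 (edgeR adjusted p = 0.0392), a call lost in 7 of the 8 fits that left out 1 sample (adjusted p from 0.0547 to 0.106). Tle4, a corepressor made by neurons that project to the thalamus, fell by 0.41 (adjusted p = 0.00302), from 114 ± 9.96 to 85.8 ± 5.61 CPM.

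Of 29 tested genes of early excitatory neurons outside transcription, 5 rose, 7 fell and 17 did not pass, with a median of -0.08. Dok5, a signalling adaptor gene, fell from 17.99 ± 3.92 to 6.45 ± 1.34 CPM (log2 fold change -1.48, edgeR adjusted p = 0.00033). Nxph4, a neurexophilin gene of subplate neurons, fell by 0.68 on the log2 scale, and Pcp4, a calmodulin-binding protein gene of corticofugal neurons, fell by 0.99. Nrn1, which encodes a neurite growth protein, rose by 0.39. Chosen after their values were seen, Auts2 and Grin2b, which are known targets of TBR1, rose by 0.30 (edgeR adjusted p = 0.0153) and 0.81 (adjusted p = 0.0286). Reln, another known target, fell by 0.40 on the log2 scale (adjusted p = 0.0181), so the targets named did not share a direction. Leaving out 1 sample ended the call of Auts2 in 2 of 8 fits (0.0519 to 0.0526) and that of Grin2b in 6 (0.0591 to 0.0817). Rnd2, a GTPase gene that NEUROG2 turns on and ZBTB18 turns down, fell by 0.38 (adjusted p = 0.0147) and lost the call in 1 of 8 (0.0510).

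**Figure D5:**
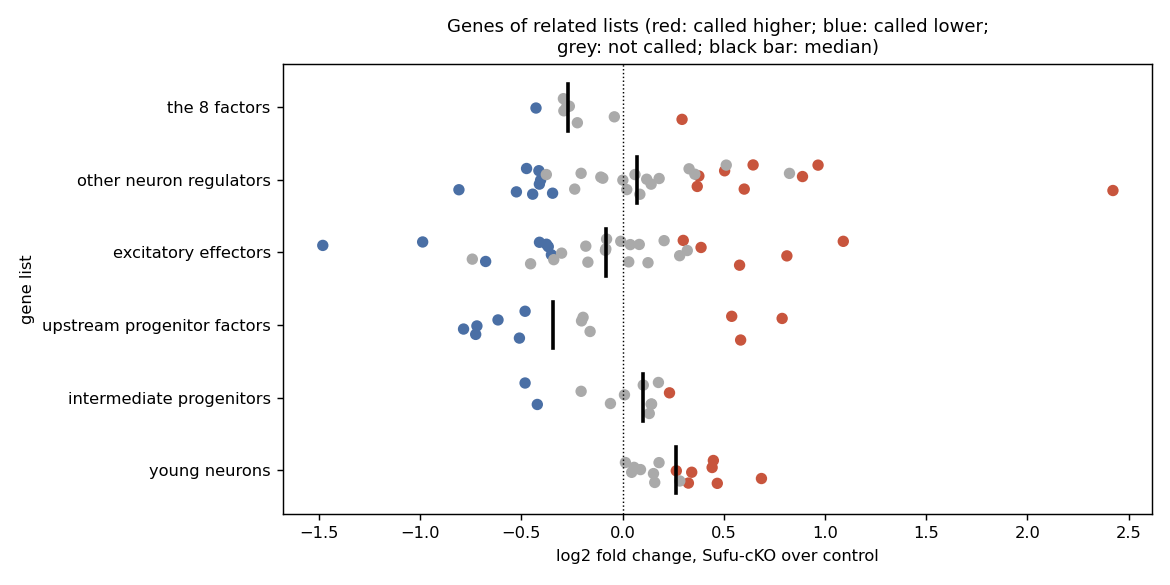
Log2 fold change of each tested gene (horizontal axis) in each gene list (vertical axis), red where called higher, blue where called lower and grey where not called, with the list median as a black bar. The members have a median of -0.27, beside 0.27 for young neurons of any type and -0.34 for dorsal progenitor factors.

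Markers of the cells that could share the tissue were measured beside the members, and their part in the member values was not tested. Young neuron genes without a cell type of their own rose in 7 of 15 tested, among them Dcx (0.47), Syt1 (0.69), Ina (0.45) and Mapt (0.44), and all 15 fitted values lay above 0. Their summed level was 2447 to 2865 CPM in control against 3036 to 3280 CPM in Sufu-cKO. Radial glia genes were mixed. Of 10, Slc1a3 (1.34), Sox2 (0.58), Pax6 (0.54), Vim (0.43) and Nes (0.42) rose, and Prom1, Sox9, Fabp7, Hes1 and Hes5 had values from -0.34 to -0.15 that did not pass, with no overlap between genotypes for Prom1. The summed level, most of it from Vim and Nes, was 3006 to 3272 CPM in control against 3986 to 4179 CPM in Sufu-cKO. Of 11 intermediate progenitor genes, Neurog2 and the Notch ligand gene Dll1 (-0.42) fell and Btg2 (0.23) rose, the last losing its call in 6 of 8 fits with 1 sample left out (edgeR adjusted p from 0.0531 to 0.0938). That list summed to 1175 to 1368 CPM in control and to 1144 to 1273 CPM in Sufu-cKO. Of 11 Cajal-Retzius genes, Ndnf rose (1.90) and Reln fell by 0.40 on the log2 scale, a call lost without Cont_345 (adjusted p = 0.0598). The 11 genes summed to 373 to 412 CPM in control and to 352 to 396 CPM in Sufu-cKO.

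Genes of GABAergic and ventral telencephalic cells rose in 2 of 14 tested, among them the neuropeptide gene Npy (1.69). The summed level of the GABAergic and ventral list was 107 to 219 CPM in control against 133 to 332 CPM in Sufu-cKO, and its list median was 1.19. Nkx2-1, which defines the medial part of the ventral telencephalon (0 to 96 counts per sample), and Lhx8 (0 to 6 counts) did not pass the low-count filter. Striatal neurons also make Bcl11b. Of 7 striatal genes edgeR called 0, with 0 at an unadjusted p under 0.05 and 0 called by DESeq2 or limma-voom. All 7 fitted log2 fold changes of these genes lay above 0, however, with a median of 0.29. The summed level of the striatal list was 27.9 to 45.5 CPM in control against 31.3 to 53.2 CPM in Sufu-cKO. The part of striatal cells in the Bcl11b values was not tested. Diencephalic genes rose in 2 of 6 tested (Tcf7l2 by 0.92 and Olig3 by 2.83) and Lhx9 fell by 0.56 on the log2 scale, with sums of 194 to 249 CPM in control against 192 to 234 CPM in Sufu-cKO.

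Genes of the choroid plexus, the secretory epithelium at the forebrain midline, fell in 5 of 7 tested, with a summed level of 477 to 759.5 CPM in control against 71.0 to 259 CPM in Sufu-cKO. Genes of endothelium fell in 3 of 8 (sums of 299.8 to 343 CPM against 248 to 300.1 CPM) and of microglia in 3 of 7 (39.95 to 53.6 CPM against 30.6 to 38.7 CPM). The endothelial receptor gene Kdr kept its call without each sample in turn, whereas Cdh5, Ramp2, Csf1r and Cx3cr1 each lost theirs in 6 of 8 such fits and Pf4 in 5 (edgeR adjusted p from 0.0587 to 0.141), and limma-voom called 1 endothelial gene. Of 7 erythroid genes (3369 to 4492 CPM against 2890 to 3288 CPM), edgeR and limma-voom called 0 and DESeq2 called 1, and 4 had an unadjusted p under 0.05 in edgeR. Of 7 genes of mesenchyme and meninges all 3 tools called 0, with 0 at an unadjusted p under 0.05. The summed level of the mesenchyme list was 645 to 1463 CPM in Sufu-cKO, highest in Mut_337, where 6 members were at the lowest level of their group, against 793 to 859 CPM in control. Without Mut_337 the log2 fold change of Fezf2 was -0.36 (edgeR adjusted p = 0.0362).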

How the data were processed

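Total RNA of 8 dorsal forebrain samples was sequenced from stranded mRNA libraries, per the labels' protocols. Alignment used STAR 2.4.2a and GRCm38, per the submitters' processing notes. For the read counting, neither the program and strand setting nor the annotation release is given in the sources used here. Raw counts were deposited for 43629 gene IDs and were tested here. The authors deposited a second table with a normalised signal per sample, the fold change as a ratio, and p-values with a false discovery rate per gene. From that deposited table the fold change was used for the members alone. The rate was used for the members and for the share of all its genes under 0.05. The normalised signal served to check the samples and to recompute the ratios between members. A total of 1 gene ID that a spreadsheet had turned into a formula was restored, and 0 columns of values matched no sample.

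Counts were fitted in R 4.3.3 with edgeR 4.0.16 (filterByExpr with its minimum count at 10 and minimum total at 15, TMM scaling, robust quasi-likelihood F-test, 2-sided, Benjamini-Hochberg). The 15382 tested of 25299 genes with any count held 99.94% of counts, and the biological coefficient of variation was 12.8%. Total counts were 27514357 to 34878838 per sample, and the precision also depends on the spread among samples. Samples of 1 genotype differed by more than sampling noise (chi-square per degree of freedom 8.90 to 30.6). That check cannot tell separate embryos from separate libraries of 1 source. Each sample was counted once. In counts simulated for this comparison on 15382 genes, with 50 changed at each size, the test recovered 36% at 1.25-fold, 90% at 1.5-fold, 98% at 2-fold and 100% at 3-fold, with 7 false calls.

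The members and gene lists were chosen with earlier results of these data known. Beside the members, the genes named are the called genes of smallest p in each list (at most 4, with abundant genes added to reach 2) and the 2 genes most like each member by log2 CPM with a prior count of 2. Of markers that this rule also names, those of choroid plexus, blood and mesenchyme are given as counts in the report, and 1 called gene that it names is not reported here, although the counts include it. Prdm8, Tle4, Auts2, Grin2b, Rnd2, Gm26801 and the radial glia genes Nes, Prom1, Sox9, Fabp7, Hes1 and Hes5 were chosen after their values were seen. Ratios were compared by exact permutation. Exon lengths came from GENCODE M21 and promoters from RefSeq, where 7 of 8 members were found and Bhlhe22 was not. Alternatives were RLE and upper quartile scaling, no filter, at least 1 CPM in 4 samples, no robust estimation, DESeq2 1.42.0, limma-voom (limma 3.58.1), 1 surrogate variable (sva 3.50.0) and each sample left out. The 2 marker-list covariates were added after the data were seen.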

Additional observations from a re-analysis of the deposited data

Results flagged for a closer look

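Each of the following means was picked out because 1 sample lay far from the other 3 of its genotype, by a gap beyond Dixon's 95% critical share of the whole range. A total of 56 groups of 4 was looked at, and chance picks out about 1 in 20. The values are means of log2 CPM over a gene list.

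Paralogues of the members had a mean of 5.36 in Mut_340, against 5.57 to 5.59 in the remaining 3. Mut_340 also had the lowest mean of the choroid plexus list, 1.98 against 3.43 to 3.55. The same sample was the highest of its group for 6 members.

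Mut_337, which was lowest of its group for 6 members, had the highest mean of the diencephalon list, 4.002 against 3.58 to 3.59, and of the mesenchyme and meninges list, 6.16 against 4.62 to 4.73. Without Mut_337, the mesenchymal collagen genes Col1a2 and Col3a1 were lower in Sufu-cKO by edgeR (log2 fold change -0.46, adjusted p = 0.000378, and -0.24, adjusted p = 0.0294).

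In control, Cont_345 had a mean of 6.86 for the dorsal progenitor factors, against 6.64 to 6.66 in the other samples. The part of these samples in the member values was not tested beyond leaving each out in turn.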

How the results depend on the processing

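The number of genes called was 1689, from 1079 to 1836 with 1 sample left out (lowest without Cont_345), 132 with the young neuron covariate and 678 with the GABAergic covariate. The number of members called was 2, from 1 to 3 with 1 sample left out (1 without Cont_345 or Cont_365), 3 with DESeq2 and with 1 surrogate variable, and 0 with either covariate by edgeR, each with 2 at an unadjusted p under 0.05. Tbr1 and Fezf2 passed in all 8 settings that kept every sample and added no list covariate. With 1 sample left out, the log2 ratio difference ran from 0.65 to 0.82 for Tbr1 to Fezf2, 0.51 to 0.60 for Tbr1 to Bcl11b, 0.07 to 0.27 for Bcl11b to Fezf2 and -0.15 to 0.0033 for Neurod6 to Neurod2. The sign turned for Sox5 without Cont_365 (0.0363, lowest -0.12) and with the GABAergic covariate (0.0177). It turned for Ebf1 without Cont_365 (-0.0372, highest 0.21) and with that covariate (-0.0775), for Fabp5 without Cont_365 (0.0288, lowest -0.11) and for Zfp503 with the young neuron covariate (-0.0587). It turned for Col1a2 and Col3a1 with limma-voom (-0.0372 and -0.0224), with 1 surrogate variable (-0.0543 and -0.0301) and without Mut_337 (-0.46 and -0.24, ranges -0.46 to 0.32 and -0.24 to 0.11). Causes were not tested. Of 1134 values for 63 other named genes, 966 kept direction and call, 137 lost the call, 21 gained it and 10 turned. No paired analysis was possible because the sample numbers in the titles are not shared between genotypes. The self-test recovered 36% at 1.25-fold, but it changed far fewer genes than were called here and drew each gene's spread from the trend with level. That recovery is therefore not the power for the members that did not pass. Their not passing does not show that they were unchanged.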
